A study of Homo sapiens with 6 samples.

Results

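RNA polymerase II transcribes protein-coding genes and needs the general transcription factors to find a promoter, open the DNA and leave it. Described here are 40 genes of that machinery, chosen by symbol, and each of the names was found among the 32862 genes of the table. They comprise the 12 subunits of RNA polymerase II, 11 of TFIID, 3 of TFIIA and TFIIB, 4 of TFIIE and TFIIF, 6 of TFIIH, and 4 genes of P-TEFb and the SPT elongation factors. The cells were SH-SY5Y, a human neuroblastoma line of neuron-like cells, and RNA was selected by its poly(A) tail and sequenced. One group of 3 libraries (KO1, KO2 and KO3) carried a CRISPR-Cas9 knockout of OTULIN, which encodes an enzyme that removes linear ubiquitin chains. The other group of 3 libraries (WT1, WT2 and WT3) came from the wild-type line. Both groups were untreated, shared the same growth medium and carried the label of batch 1. The labels do not say whether the knockout is 1 clone or whether replicates were separate cultures. The p-values therefore reflect only how far the libraries of a group varied, and that variation may be technical.

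At a promoter, TFIID recognises the core elements through TBP and its associated factors (TAFs). TFIIA steadies TBP on the DNA, TFIIB joins TBP to the polymerase, TFIIF comes with the polymerase, and TFIIE brings TFIIH. TFIIH unwinds the DNA and, through its kinase CDK7, phosphorylates the repeat-bearing tail of POLR2A, the largest polymerase subunit. P-TEFb, the kinase CDK9 with its cyclin CCNT1, then releases the polymerase from pausing close to the start, and the SPT factors travel with it along the gene.

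The depth of the groups differed greatly. KO libraries held 725827 to 862932 counts over 2306 to 2567 genes with a count, and WT libraries held 61772795 to 64352333 counts over 27453 to 27958 genes. The targeted gene OTULIN had 0 counts in each KO library, against 1682, 2101 and 2155 counts in WT1, WT2 and WT3. A count of 0 was the usual value in KO libraries: 71.3% of the 10820 genes tested were at 0 in all 3. Mitochondrially encoded genes took 0.00423% ± 0.00044 of the counts in KO libraries and 8.52% ± 0.16 in WT libraries (SD, n = 3 each), and 4 ribosomal RNA loci took 28.6% ± 8.6 in KO libraries and 0.575% ± 0.22 in WT libraries. The cell type label was checked against 9 markers of adrenergic neuroblastoma. Of these 5 (PHOX2A, GATA3, DBH, TH and CHGA) were at 0 in all KO libraries, and the list summed to 674 to 745 CPM (counts scaled to the library total) in KO libraries and 6041 to 6957 CPM in WT libraries. Summed markers of mesenchymal cells (4 genes, 1 at 0 in KO) stood at 46.4 to 134 CPM in KO libraries and 71.3 to 82.2 CPM in WT libraries, those of epithelial cells (5 genes, 1 at 0) at 4.94 to 28.97 CPM in KO and 7.43 to 23.1 CPM in WT libraries, and those of blood (5 genes, 2 at 0) at 4.64 to 26.2 CPM in KO and 0.129 to 2.59 CPM in WT libraries. These differences move with every comparison below, and their part in the results was not tested.

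Most of the machinery was not counted in the KO libraries. Of the 40 genes, 33 had 0 counts in all 3 KO libraries, beside 71.3% of all genes tested and 88.9% of all genes in the table. Each of the 40 was counted in every WT library, and 1 of them, TAF12, was not tested. The 7 genes with any KO count were POLR2B, TAF4, TAF5, TAF9, GTF2E2, CCNT1 and SUPT6H, which is 7 of 40 beside 28.7% of all genes tested. KO1 held a count for 4 of the 40 genes, KO2 for 5 and KO3 for 7, against 40 of 40 in each WT library. The same numbers were obtained with a minimum of 3 counts, and an exact permutation test (two-sided) returned p = 0.1, the lowest that 3 against 3 libraries can reach.

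The zeros can be set against the KO depth. If each gene had taken the same share of the KO counts as of the WT counts, the 33 genes at 0 would have had 16.0 (GTF2H4) to 526 (POLR2A) counts each over the 3 KO libraries, and 5090 together. A count of 0 over the 2398362 counts of the KO group allows up to 1.25 CPM, taking 3 counts as the limit, so these genes were at least 5.35-fold (GTF2H4) to at least 175-fold (POLR2A) lower in KO libraries. Such limits cover counting error only. In bulk RNA, fewer cells of a type and less RNA per cell cannot be told apart.

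**Figure D1:**
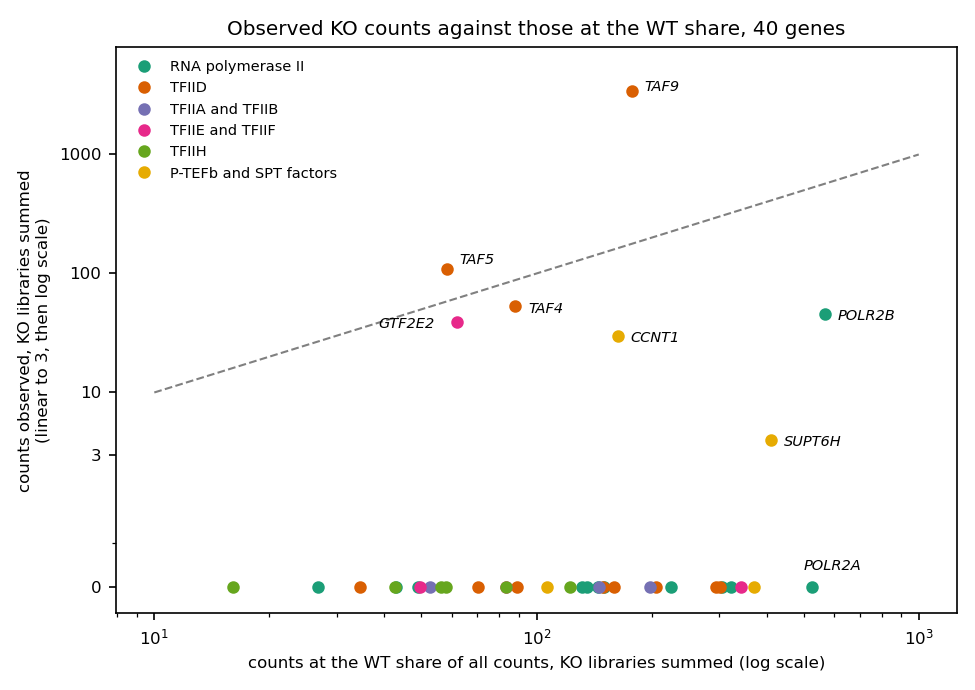
Counts observed over the 3 KO libraries (vertical axis, linear to 3 and then log) against the counts each of the 40 genes would have had there at its WT share of all counts (horizontal axis, log scale), coloured by complex; the dashed line marks equality. On this scale of library totals TAF9 and TAF5 lie above the line (TAF5 turned with median-ratio scaling), 33 genes lie at 0, and POLR2A at 526 expected counts is the rightmost of them.

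In the test over all genes, edgeR's quasi-likelihood test with Benjamini-Hochberg adjustment, 36 of the 40 genes were called lower in KO libraries, beside 88.0% of all genes tested, and 2 were called higher, beside 7.63%: TAF9, and TAF5, whose direction turned with median-ratio scaling. GTF2E2 was not called, and TAF12 was below the filter of a mean of 1 FPKM (fragments per kilobase, scaled to depth, the authors' value per length). A gene that passed that filter through its WT level alone had to differ, so these counts describe the genes and stand beside the share for all genes. All KO values lay below all WT values for 37 of the 40 genes (88.0% of all genes tested), above them for 2 (8.15%), and overlapped for 1.

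Start regions of a few of these genes are shown to give their sequence context. RefSeq's promoter table (GRCh38.p14) held 45 start sites for 34 of the 40 genes. The stretches below lie just upstream of a start and outside any exon of GENCODE release 29: TAF5 at chr10:103367726-103367966 (plus strand) and TAF4 at chr20:62065882-62066131 (minus strand) are shown because both were counted in all KO libraries, TAF13 at chr1:109076004-109076253 (minus strand) and POLR2E at chr19:1095381-1095625 (minus strand) because both were at 0 there. The RefSeq start of TAF4 lies outside the counted TAF4 locus, which reaches only to position 62064366 in the deposited table. Capitals mark matches on either strand. The motif called GC box has the letters GGGCGG. The motif called ETS core has the letters CCGGAAG. The third motif is the CCAAT box.
TAF5: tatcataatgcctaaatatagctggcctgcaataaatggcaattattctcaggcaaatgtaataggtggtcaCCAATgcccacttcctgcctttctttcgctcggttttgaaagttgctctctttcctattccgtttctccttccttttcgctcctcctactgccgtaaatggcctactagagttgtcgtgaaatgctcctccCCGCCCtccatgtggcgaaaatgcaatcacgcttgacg
TAF4: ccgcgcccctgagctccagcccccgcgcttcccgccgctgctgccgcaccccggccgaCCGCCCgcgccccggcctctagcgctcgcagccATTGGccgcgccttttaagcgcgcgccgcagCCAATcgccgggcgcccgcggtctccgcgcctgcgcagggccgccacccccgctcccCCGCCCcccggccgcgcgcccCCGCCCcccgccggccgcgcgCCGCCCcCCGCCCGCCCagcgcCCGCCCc
TAF13: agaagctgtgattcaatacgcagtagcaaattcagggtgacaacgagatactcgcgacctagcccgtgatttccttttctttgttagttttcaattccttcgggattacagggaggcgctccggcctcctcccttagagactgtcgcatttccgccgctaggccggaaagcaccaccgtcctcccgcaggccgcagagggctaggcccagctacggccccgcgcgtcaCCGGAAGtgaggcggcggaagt
POLR2E: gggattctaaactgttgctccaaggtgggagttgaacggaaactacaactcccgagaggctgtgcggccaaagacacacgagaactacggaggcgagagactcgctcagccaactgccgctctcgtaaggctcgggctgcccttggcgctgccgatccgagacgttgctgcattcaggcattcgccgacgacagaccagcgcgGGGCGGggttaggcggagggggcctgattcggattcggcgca

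The 250 bases upstream of the 45 start sites were searched on both strands for these motifs and for TATAAA, letters of the element that TBP binds. That run of letters was found at 1 of the 45 (2.22%), upstream of GTF2B, and at 10.7% of all 35116 promoters in the table. An ETS core was found at 15 (33.3%, 14 genes), against 8.52% of all promoters, and a GC box at 28 (62.2%, 24 genes), against 42.6% of all promoters. A CCAAT box was found at 7 (15.6%), against 32.0% of all promoters. The matches are letters in a window and were not tested as sites.

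The polymerase itself was hardly counted in the KO libraries. Of its 12 subunit genes 11 were at 0 in all 3, beside 71.3% of all genes tested. All 12 were called lower, beside 88.0% of all genes tested. POLR2A, whose product carries the active site with POLR2B and the phosphorylated tail, had 0 counts in each KO library, against 15327, 13027 and 12935 counts in WT1, WT2 and WT3. POLR2B, the second-largest subunit, was the exception, with 18, 18 and 10 counts in KO1, KO2 and KO3, against 13741, 15324 and 15632 counts in the WT libraries. Every KO library was thus far below every WT library for both catalytic subunits.

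POLR2B averaged 19.0 ± 4.5 CPM in KO libraries and 237 ± 16 CPM in WT libraries (SD, n = 3 each), 12.5-fold lower in KO. Its log2 change was -4.02 (SE 0.18), with an edgeR adjusted p of 1.14e-05. POLR2A took nearly as large a share of the WT counts, 219 ± 24 CPM, and was at least 175-fold lower in KO libraries. At its WT share POLR2B would have had 569 KO counts and had 46, and POLR2A would have had 526 and had 0. POLR2B, at 19.0 CPM in KO libraries, thus stood above the 1.25 CPM that the count of 0 allows for POLR2A, although their WT levels were similar.

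The smaller subunits were alike in having no KO count. POLR2C and POLR2J form the platform on which the enzyme assembles. POLR2J, which has near-identical copies in the genome that can share its reads, had 0 counts in each KO library, against 3775, 3562 and 4018 in the WT libraries, and POLR2C was at least 102-fold lower. POLR2D and POLR2G, which form the detachable stalk, were at least 74.9-fold and at least 50.05-fold lower. The subunits POLR2E, POLR2F, POLR2H, POLR2K and POLR2L, which RNA polymerases I and III also contain, were at least 107-, 14.3-, 45.1-, 43.8- and 8.92-fold lower in KO libraries. POLR2I, a small subunit at the edge of the enzyme, was at least 16.3-fold lower. The bounds follow the WT level, since all 11 genes shared the same value of 0 in KO libraries.

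In WT libraries the subunit genes did not have equal levels, although the enzyme holds 1 copy of each. By FPKM, POLR2J was highest at 59.1 ± 4.7 FPKM (SD, n = 3), then POLR2B at 36.9 ± 2.5 and POLR2C at 32.0 ± 1.1. POLR2G at 30.2 ± 0.88 and POLR2K at 30.03 ± 0.49 overlapped, as did POLR2E at 25.3 ± 1.7 and POLR2A at 24.1 ± 2.6. POLR2D, POLR2I and POLR2H were indistinguishable at 16.4 FPKM each, POLR2L stood at 9.08 ± 0.58 and POLR2F was lowest at 2.33 ± 0.09. The divisor behind the FPKM values was 1.10 to 6.96 times the longest GENCODE transcript of the gene (median 1.77 over the 40 genes, above 1.5 in 25), and 3.64 times for POLR2F. Per kilobase of the longest transcript POLR2F was still the lowest of the 12. POLR2J was the highest on average, at 64.8 CPM per kilobase, but its WT libraries overlapped those of POLR2C, at 62.1. By that measure POLR2D, POLR2I and POLR2H were no longer alike, at 18.6, 22.4 and 31.3 CPM per kilobase.

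**Figure D2:**
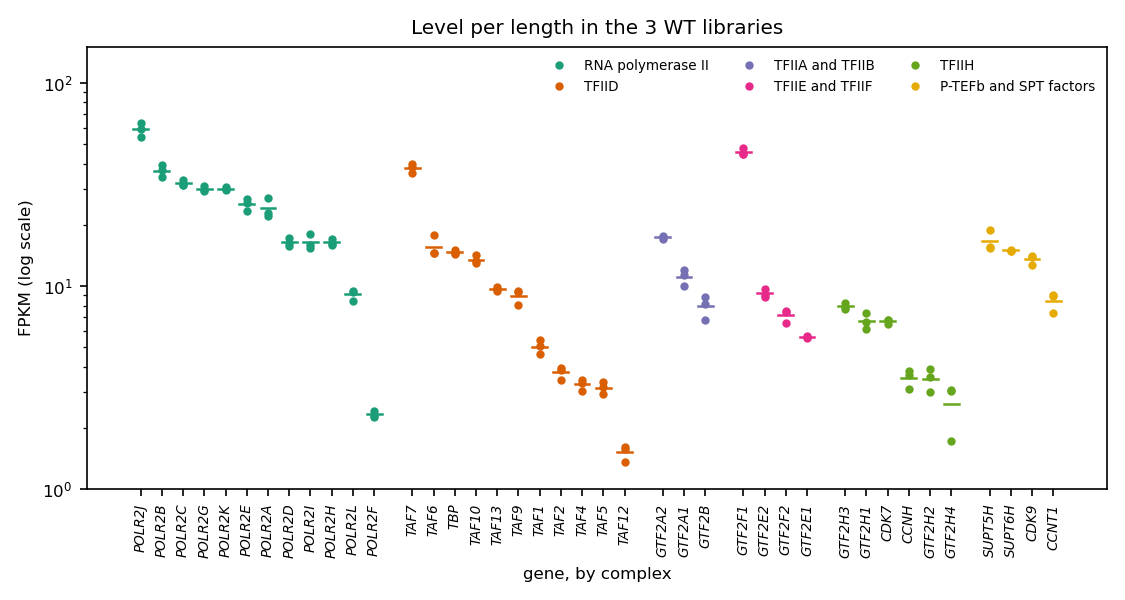
FPKM in the 3 WT libraries (points; log scale) and their mean (bar) for the 40 genes, ordered by mean within each complex. POLR2J at 59.1 FPKM, GTF2F1 at 45.6 and TAF7 at 38.1 were the highest of their complexes, and TAF12 at 1.52 was the lowest of all.

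Of the 11 TFIID genes TAF4, TAF5 and TAF9 were counted in every KO library, and the other 8 in none. Beside these, 13.9% of all genes tested were counted in every KO library and 71.3% in none. The calls were 2 higher (TAF9, and TAF5 only without median-ratio scaling), 8 lower and 1 not tested. Of all genes tested 7.63% were called higher and 88.0% lower. TBP, the subunit that binds the TATA element and is also used by RNA polymerases I and III, had 0 counts in each KO library, against 2296, 2345 and 2355 counts in WT1, WT2 and WT3. It was at least 29.7-fold lower in KO libraries. TAF1, the largest subunit and a scaffold that touches promoter DNA, and its DNA-binding neighbour TAF2 were at least 49.7-fold and at least 53.3-fold lower.

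TAF9 encodes a histone-fold subunit that pairs with TAF6 and is also part of the coactivator SAGA. It had 1188, 1044 and 1151 counts in KO1, KO2 and KO3, against 4125, 4974 and 4837 counts in WT1, WT2 and WT3. With the shallower KO libraries, that was 1421 ± 192 CPM in KO libraries and 74.0 ± 6.7 CPM in WT libraries (SD, n = 3 each). All KO libraries lay above all WT libraries, 19.2-fold higher on average.

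The log2 change of TAF9 was 3.86 (SE 0.11; edgeR adjusted p = 2.26e-06), and it was 3.30 with median-ratio scaling and 4.26 with library totals. These values stand beside a median log2 change of 0.57 over the 1496 tested genes with at least 30 KO counts, 0.01 with median-ratio scaling and 0.96 with library totals. That set was chosen by its KO counts and leaves out genes low or at 0 in KO libraries, which raises its median. The FPKM of TAF9 was 173, 142 and 190 in KO1, KO2 and KO3, against 8.03, 9.36 and 9.46 in the WT libraries. The divisor behind FPKM was similar in both groups, 8465 bases in KO and 8257 in WT. The FPKM values thus repeat the CPM difference and are no separate support. TAF6, its partner, had 0 counts in each KO library, against 8725, 7349 and 7037 counts in the WT libraries. The pair thus had opposite calls: TAF9 was above its WT level in every KO library and TAF6 was at least 98.2-fold lower.

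The TAF9 locus is crowded. TAF9 spans chr5:69362026-69369540 on the minus strand in the deposited table, and AK6, which encodes an adenylate kinase, overlaps it on the same strand. RefSeq gives both genes the same 2 start sites. AK6 had 0 counts in each KO library, against 792, 826 and 791 counts in WT1, WT2 and WT3, so the KO counts at the locus were all assigned to TAF9. RAD17, which overlaps on the opposite strand, and the TAF9 copy TAF9B had 0 KO counts too, against 3777, 4373 and 3971 counts for RAD17 and 2673, 3066 and 2780 for TAF9B in the WT libraries. How the authors' counting divided reads between TAF9 and AK6 is not given in the sources used here. The divisor behind the FPKM of TAF9 was 5.65 times its longest transcript, and the level of TAF9 is uncertain to that extent.

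TAF5, which encodes a scaffold subunit with a propeller-shaped WD40 domain, had 36, 34 and 40 counts in KO1, KO2 and KO3, against 1529, 1451 and 1594 counts in the WT libraries. That was 46.3 ± 8.0 CPM in KO libraries and 24.3 ± 1.6 CPM in WT libraries (SD, n = 3 each), 1.91-fold higher in KO, with no overlap. The log2 change was 0.53 (SE 0.12; edgeR adjusted p = 0.00412) but turned to -0.04 with median-ratio scaling (adjusted p = 0.813), so its direction rests on the scaling. It lay close to the median of 0.57 for genes with at least 30 KO counts, a set chosen by its KO level and not a neutral reference. ATP5MK, which overlaps TAF5 on the opposite strand, had 0 KO counts.

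TAF4, which pairs with TAF12 through histone folds, had 21, 12 and 20 counts in KO1, KO2 and KO3, against 2396, 2404 and 2119 counts in the WT libraries. Its level was 22.5 ± 7.5 CPM in KO libraries and 36.7 ± 2.2 CPM in WT libraries (SD, n = 3 each), 1.63-fold lower in KO without overlap. The log2 change was -1.13 (SE 0.18; edgeR adjusted p = 0.000705), and -0.73 with library totals and -1.69 with median-ratio scaling. TAF12, its partner, had 0 KO counts, against 943, 831 and 926 counts in the WT libraries, at least 11.5-fold lower; its mean of 0.759 FPKM over the 6 libraries kept it out of the test.

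The other histone-fold and scaffold genes of TFIID had no KO count. TAF7, which binds TAF1, had 0 counts in each KO library, against 7364, 8431 and 7872 counts in the WT libraries, at least 100-fold lower. TAF10 was at least 68.3-fold lower and TAF13 at least 23.4-fold lower. In WT libraries TAF7 had the highest FPKM of TFIID, 38.1 ± 2.0 (SD, n = 3), TAF6 at 15.6 ± 1.9 overlapped TBP at 14.7 ± 0.33, TAF13 at 9.69 ± 0.23 overlapped TAF9 at 8.95 ± 0.80, and TAF4 at 3.28 ± 0.20 overlapped TAF5 at 3.16 ± 0.21. The 3 genes that the KO libraries held were thus not the most abundant of the complex in WT libraries: by FPKM they ranked 6, 9 and 10 of 11. The order depended on the length used. Per kilobase of the longest transcript TAF10 was highest at 70.3 CPM, above TAF7 at 53.8 CPM, and TAF9, TAF4 and TAF5 ranked 3, 10 and 11.

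**Figure D3:**
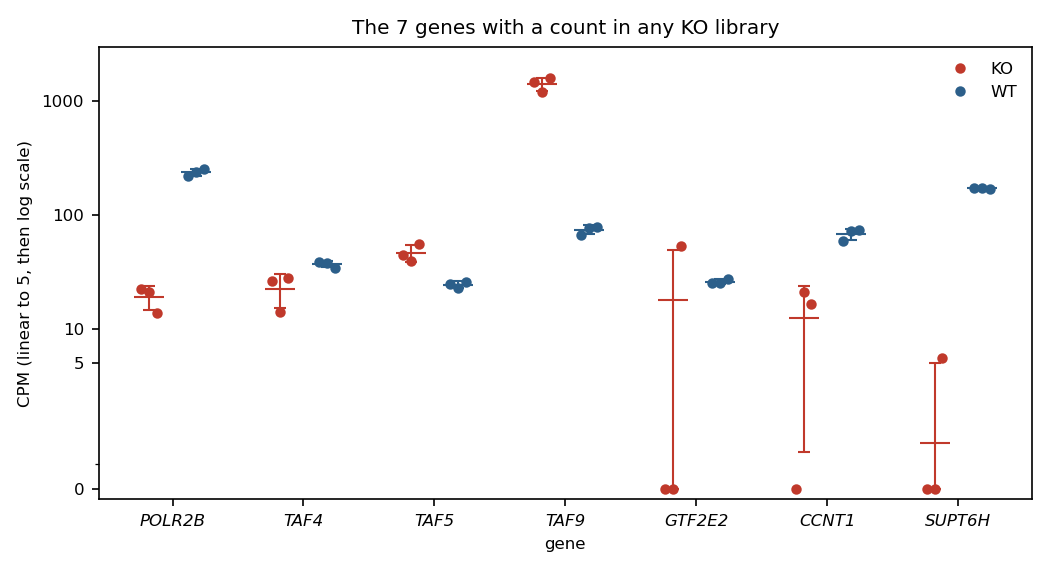
CPM (linear to 5, then log scale) in each KO library (red, left) and WT library (blue, right) for the 7 genes with a KO count; bars are the mean ± SD, drawn no lower than 0. TAF9 at 1421 CPM in KO and 74.0 CPM in WT separates fully, and GTF2E2 overlaps because KO3 alone reached 53.7 CPM.

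TFIIA and TFIIB left no count in any KO library, beside 71.3% of all genes tested at 0 there. GTF2A1 encodes the precursor of the large TFIIA chains and GTF2A2 the small chain. GTF2A1 had 0 counts in each KO library, against 4649, 5395 and 5490 counts in WT1, WT2 and WT3, at least 65.9-fold lower. GTF2A2 had 0 counts in each KO library, against 3773, 3950 and 3698 counts in the WT libraries, at least 48.5-fold lower. GTF2B, the single subunit of TFIIB, was at least 17.5-fold lower, and all 3 genes were called lower, beside 88.0% of all genes tested.

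Of TFIIE and TFIIF, 3 of 4 genes were at 0 in all KO libraries and were called lower. Of all genes tested 71.3% were at 0 and 88.0% were called lower. GTF2F1, the large subunit of TFIIF, had 0 counts in each KO library, against 9301, 8971 and 8644 counts in the WT libraries, at least 114-fold lower. GTF2F2, its small subunit, was at least 27.7-fold lower, and GTF2E1, the large subunit of TFIIE, at least 16.5-fold lower. GTF2E2, the small subunit of TFIIE, had 0, 0 and 39 counts in KO1, KO2 and KO3, against 1553, 1633 and 1689 counts in WT1, WT2 and WT3.

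For GTF2E2 one KO library thus lay above every WT library, at 53.7 CPM, and the others lay below. The mean was 17.9 ± 31 CPM in KO libraries and 25.9 ± 1.3 CPM in WT libraries (SD, n = 3 each), and the log2 change was -1.05 (SE 0.90; edgeR adjusted p = 0.290). Without KO3 the gene was at 0 in KO libraries and was called lower (edgeR adjusted p = 3.02e-05), so KO3 decided the call.

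TFIIH, the complex that opens the DNA, left no count in any KO library, beside 71.3% of all genes tested at 0 there. All 6 of its genes were called lower, beside 88.0% of all genes tested. GTF2H1 had 0 counts in each KO library, against 2879, 3601 and 3116 counts in WT1, WT2 and WT3, at least 40.7-fold lower. GTF2H3 had 0 counts in each KO library, against 2146, 2313 and 2081 counts in the WT libraries, at least 27.7-fold lower. These and GTF2H2 and GTF2H4 encode the core of the complex. GTF2H2, which also has such copies, was at least 19.3-fold lower.

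The kinase part of TFIIH followed. CDK7 had 0 counts in each KO library, against 1119, 1158 and 1066 counts in WT1, WT2 and WT3, at least 14.2-fold lower. Its cyclin CCNH was at least 18.8-fold lower, although RASA1, which overlaps CCNH on the opposite strand, had 219, 215 and 246 counts in KO1, KO2 and KO3. GTF2H4 was the least certain of the 40 genes: its WT counts of 276, 507 and 479 varied by 29.2% (coefficient of variation), against a median of 6.43% over the 40 genes. It overlaps an unnamed locus on the same strand with 3494, 2110 and 2591 WT counts, and the division of reads between them was not tested. In all, 26 of the 40 genes overlap another locus of the table.

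P-TEFb and the SPT factors were called lower throughout, 4 of 4, beside 88.0% of all genes tested. CDK9 had 0 counts in each KO library, against 2848, 2944 and 2575 counts in WT1, WT2 and WT3, at least 35.5-fold lower. CCNT1, its cyclin, had 0, 18 and 12 counts in KO1, KO2 and KO3, against 3687, 4625 and 4500 counts in the WT libraries. All KO libraries lay below all WT libraries for both partners.

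CCNT1 averaged 12.5 ± 11 CPM in KO libraries and 68.0 ± 7.6 CPM in WT libraries (SD, n = 3 each), 5.46-fold lower in KO. Its log2 change was -2.83 (SE 0.49), with an edgeR adjusted p of 0.00114. Leaving out KO1 made it 3.64-fold lower and leaving out KO2 8.23-fold lower, both still called. SUPT5H, which forms the pausing and elongation factor DSIF with SUPT4H1, had 0 counts in each KO library, against 10897, 9287 and 8947 counts in the WT libraries, at least 124-fold lower. SUPT6H, a histone chaperone that moves with the polymerase, had 0, 0 and 4 counts in KO1, KO2 and KO3, against 10759, 11014 and 10526 counts in the WT libraries. It was 93.4-fold lower in KO (log2 change -7.07, SE 0.48; edgeR adjusted p = 1.56e-05), 62.2-fold lower without KO1 or KO2, and at 0 without KO3.

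Summed by complex, the share of the counts was higher in KO libraries for TFIID, through TAF9, and lower for the other 5 groups. The polymerase genes took 0.00190% ± 0.00045 of the counts in KO libraries and 0.110% ± 0.0024 in WT libraries (SD, n = 3 each), 57.8-fold lower in KO. TFIIE and TFIIF took 0.00179% ± 0.0031 in KO and 0.0224% ± 0.00027 in WT libraries, and P-TEFb with the SPT factors 0.00143% ± 0.0012 in KO and 0.0439% ± 0.0013 in WT libraries. TFIIA with TFIIB and TFIIH took none in KO libraries, and 0.0165% and 0.0158% in WT libraries.

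TFIID took 0.149% ± 0.021 in KO libraries and 0.0678% ± 0.00022 in WT libraries, 2.20-fold higher in KO. Without TAF9 it took 0.00688% ± 0.0015 in KO and 0.0604% ± 0.00058 in WT libraries, 8.79-fold lower in KO, so 1 gene set the direction. As a share of the summed FPKM, TFIID stood at 0.0427% ± 0.013 in KO and 0.0413% ± 0.00089 in WT libraries and the values overlapped (exact two-sided permutation test, p = 0.7). Over all 40 genes the share of counts was 0.154% ± 0.023 in KO and 0.276% ± 0.0018 in WT libraries, and without TAF9 0.0120% ± 0.0045 in KO and 0.269% ± 0.0023 in WT libraries. KO and WT values were fully apart for each of these shares of counts, at p = 0.1 in the exact permutation test.

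**Figure D4:**
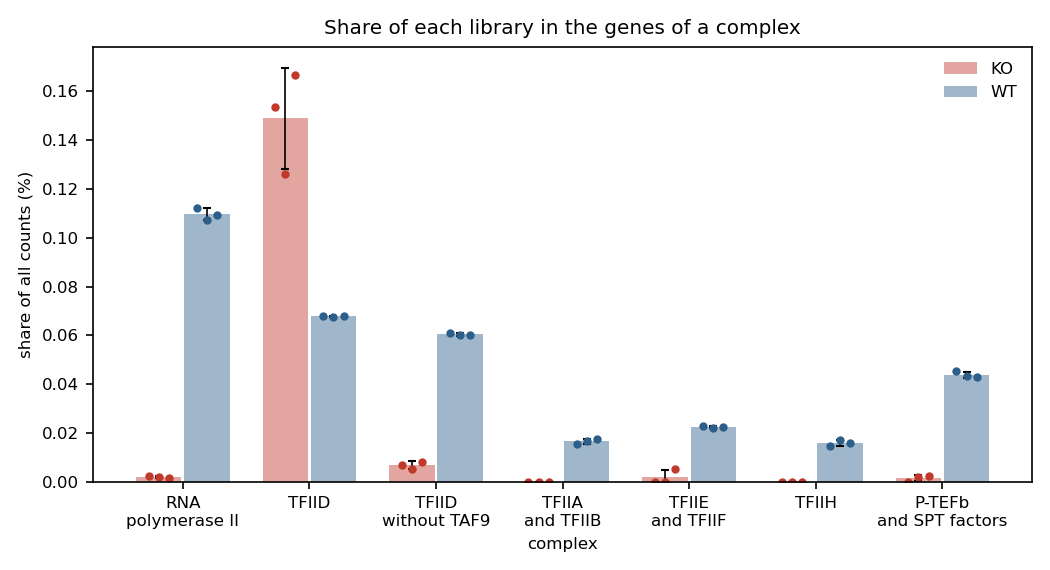
Share of all counts in the genes of each complex, in KO (red, left) and WT (blue, right) libraries; bars are means, points are libraries and error bars are SD (n = 3). TFIID is the one complex with a higher share in KO, 0.149% against 0.0678%, and without TAF9 it stands at 0.00688% in KO against 0.0604% in WT.

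The 4 genes counted in all KO libraries are too few for more than a description of their transcripts. Their median longest transcript was 3688 bases, against 2239 bases for the genes at 0, and their median exon number was 13, against 7. TAF9, which held 3383 of the 3665 KO counts of the 40 genes, went the other way, with 1461 bases and 3 exons. Over all genes tested the medians were 4375 bases for those counted in all KO libraries and 2973.5 bases for those at 0. The median GC content was 45.4% for the 4 genes and 46.4% for the 33 genes, and 45.3% and 49.2% over all genes tested.

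The same counts were made for 110 further genes of the transcription machinery in 5 lists, of which 96 were tested. Of these, 10 were called higher in KO libraries and 84 lower, beside 7.63% and 88.0% of all genes tested. At 0 in all KO libraries were 82 of the 110 (74.5%), beside 71.3% of all genes tested and 88.9% of all genes in the table. The 110 include 14 genes that were not tested. The same shares of all genes stand beside the counts of each list below. RNA polymerases I and III, which make ribosomal and transfer RNA, had 17 of 18 genes at 0 in all KO libraries, and the 17 tested were all called lower. POLR1A, the largest subunit of RNA polymerase I, had 0, 0 and 7 counts in KO1, KO2 and KO3, against 5105, 5092 and 4836 counts in the WT libraries. POLR1B, its second-largest subunit, was at least 91.2-fold lower and POLR3D, of RNA polymerase III, at least 68.8-fold lower.

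Among the other TFIID and TFIIH genes, 11 of 13 were at 0, including the DNA-opening ATPase ERCC3 (at least 88.0-fold lower) and TAF11 (at least 48.2-fold lower), the partner of TAF13. Of the 13, 6 were not tested, and of the 7 tested 5 were called lower and 1 higher. TAF15, an RNA-binding protein found with TFIID, had 266, 235 and 267 counts in KO1, KO2 and KO3, against 10379, 9955 and 8618 counts in the WT libraries, 2.10-fold higher in CPM. It was called higher (edgeR log2 change 0.67, adjusted p = 0.00149), but not with median-ratio scaling (0.10, adjusted p = 0.422). TBPL1, a relative of TBP, had 123, 0 and 0 counts in KO1, KO2 and KO3, against 2512, 2620 and 2486 counts in the WT libraries, and was not called (edgeR adjusted p = 0.942).

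Mediator, which joins transcription factors to the polymerase, had 21 of 33 genes at 0 in all KO libraries; of 30 tested, 27 were called lower and 2 higher. MED12, of its kinase module, had 103, 99 and 143 counts in KO1, KO2 and KO3, against 4539, 4375 and 4346 counts in the WT libraries, 2.08-fold higher in CPM (edgeR log2 change 0.65, adjusted p = 0.00928), but 0.08 and not called with median-ratio scaling (adjusted p = 0.607). The other call was CDK8, the kinase of that module, with 77, 72 and 117 counts in KO libraries, against 2371, 2568 and 2481 in WT libraries, 2.87-fold higher; it is named after its values were seen. MED1 had 102, 107 and 108 counts in KO libraries, against 5181, 6108 and 5876 in WT libraries, and was not called (edgeR log2 change 0.15, adjusted p = 0.195), while with median-ratio scaling it was -0.41 (adjusted p = 0.00148). CCNC, the cyclin of CDK8, was at 0 in all KO libraries, at least 42.4-fold lower, and is also named after its values were seen. MED13, of the same module, was called lower (edgeR log2 change -0.62, adjusted p = 0.0100) although its groups overlapped. The MED13 call was lost with library totals (edgeR adjusted p = 0.336). MED24 and MED15 were at least 90.7-fold and at least 66.4-fold lower.

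Elongation and pausing factors had 22 of 33 genes at 0, and of 30 tested 24 were called lower and 6 higher. AFF4, the scaffold of the super elongation complex that carries P-TEFb, had 184, 150 and 171 counts in KO1, KO2 and KO3, against 6836, 8196 and 7915 counts in the WT libraries, 1.74-fold higher in CPM. CDK13, a kinase of the polymerase tail, had 158, 150 and 132 counts in KO libraries, against 6135, 6866 and 6949 in WT libraries, 1.73-fold higher. Both log2 changes were 0.40 and turned to -0.16 with median-ratio scaling, so the direction of these 2 calls rests on the scaling. CDC73, of the PAF1 complex, had 93, 144 and 137 counts in KO libraries, against 2520, 2865 and 2618 in WT libraries, 3.69-fold higher (edgeR log2 change 1.49, adjusted p = 0.000181), and 0.93 on the log2 scale with median-ratio scaling. Both genes of the histone chaperone FACT, SSRP1 and SUPT16H, were at 0, at least 365-fold and at least 334-fold lower.

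The assembly factors and tail enzymes had 11 of 13 genes at 0, and of 12 tested 11 were called lower and 1 higher. CTDSPL2, a phosphatase related to those of the polymerase tail, had 416, 445 and 461 counts in KO1, KO2 and KO3, against 5154, 5695 and 5649 counts in the WT libraries, 6.33-fold higher (edgeR log2 change 2.27, adjusted p = 1.20e-05). CTDSP1 had 6, 0 and 4 counts in KO libraries, against 2550, 2539 and 2184 in WT libraries, 8.96-fold lower. The tail phosphatases SSU72 and CTDSP2 were at least 95.4-fold and at least 86.5-fold lower.

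**Figure D5:**
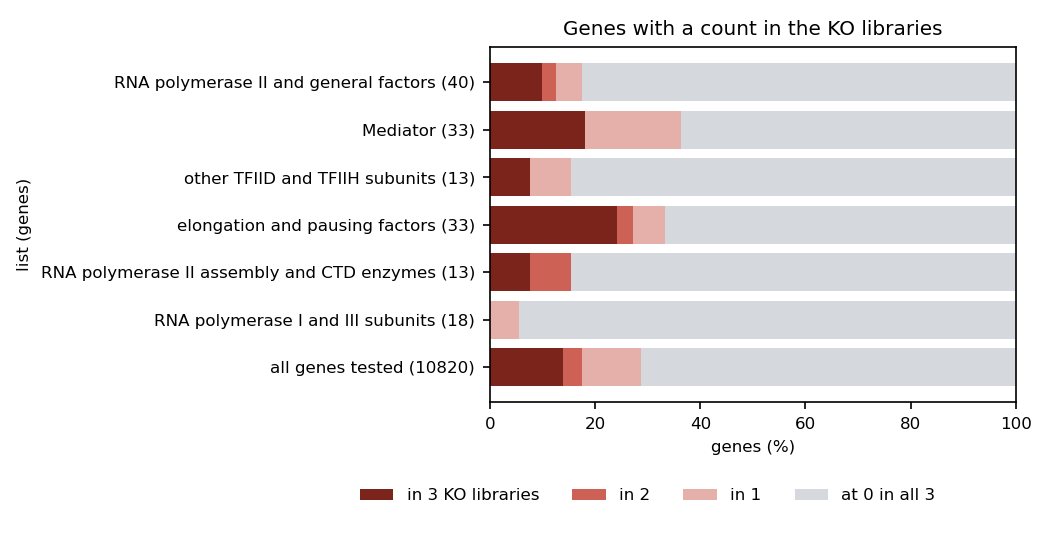
Percentage of genes in each list that had a count in 3, 2, 1 or none of the KO libraries, with the number of genes in brackets. Of the 40 genes 33 were in none, of RNA polymerases I and III 17 of 18, and of all 10820 genes tested 71.3%.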

How the data were processed

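Poly(A)-selected RNA of 3 OTULIN KO and 3 WT libraries was analysed, grouped by genotype in the titles. The authors deposited 1 table of whole-number counts and of FPKM values per gene and library, per the file headers. Per the submitters' processing notes, which give no roles, the build was hg38 and the tools were StringTie 1.3.4d, HISAT2 2.0.4, cutadapt 1.9 and DESeq2. Neither the annotation nor whether counting used strand is given in the sources used here, so overlapping genes and copies can share reads.

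The 10820 of 32862 genes whose FPKM averaged 1 or more across all libraries were tested with edgeR 4.0.16 (glmQLFit and glmQLFTest, TMM factors, R 4.3.3), with genotype as the single term. A gene was called when its p, adjusted by Benjamini-Hochberg over every gene tested, was below 0.05. A standard error is the log2 change divided by the square root of F. CPM are counts scaled to the library total, and a fold divides mean CPM values. Where KO libraries held no count, the fitted value is set by the prior count and a bound against 3 counts over the KO group is given instead. Per library, 3 counts were 3.48 to 4.13 CPM in KO and 0.0466 to 0.0486 CPM in WT. Intervals and floors cover counting error only. Single values were compared with exact two-sided permutation tests. The script was run on simulated data in which few genes changed. That setting is unlike these data, so the run does not cover the many zeros of the KO libraries. Replicate pairs differed beyond sampling noise (chi-square per degree of freedom 15.5 to 41.7).

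Sequences and start sites came from RefSeq (GRCh38.p14), and transcript lengths from GENCODE release 29 without retained introns. The 40 genes and all lists were chosen with earlier results of these data known. All 40 are named, with values per library for those with a KO count, for POLR2A, TBP, CDK7 and CDK9 and for the 2 of highest WT FPKM per complex, and beyond that where text singles one out. Of other lists, up to 3 genes with most KO counts and up to 2 at 0 with the highest WT CPM are named, with exceptions marked. TBPL2 was not analysed here. The alternatives were median-ratio scaling, library totals, no filter, a mean of 5 FPKM, DESeq2 1.42.0, a replicate block, leaving out each library, a minimum of 3 counts, and shares of FPKM or without mitochondrial and the 10 most abundant genes; leaving out TAF9 and CPM per kilobase were added after the data were seen. Python 3.11.15, scipy 1.17.1, pandas 2.3.3 and matplotlib 3.10.9 were used.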

Additional observations from a re-analysis of the deposited data

How the results depend on the processing

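Of the 39 genes tested, 37 kept their direction and their side of the threshold in every fit except the replicate block; the others were TAF5, whose log2 change was -0.0358 with median-ratio scaling and -0.0356 with DESeq2, and GTF2E2, called without KO3. The 2 genes called higher became 1 (median-ratio scaling, DESeq2, a mean of at least 5 FPKM), and the 36 called lower became 20 with the 5 FPKM filter, under which 22 of the 40 genes were tested. Over all genes the 9519 lower calls became 3851 with that filter. In the 5 further lists the 10 higher calls became 4 (median-ratio scaling), 5 (DESeq2) and 6 (5 FPKM), and the 84 lower calls 39 (5 FPKM). Leaving out each library gave 2 genes called higher and 36 to 37 lower. It gave 792 to 847 higher and 9387 to 9534 lower over all genes.

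Whether equal replicate numbers pair the libraries was not settled. The deviations of same-numbered KO and WT libraries correlated at 0.01, -0.01 and 0.03, and not every library correlated best with its own number. These values cannot decide it, because 71.3% of all genes tested were at 0 in all KO libraries and had no deviation there. With the replicate block, 1 of the 40 genes was called higher (TAF9) and 1 lower (POLR2B), 452 and 289 over all genes, and 1 and 1 in the 5 lists; this does not measure a weaker effect. The TFIID share difference was -0.0536 percentage points without TAF9. POLR2J ranked 7 of the subunit genes by CPM in WT libraries and 1 by FPKM or, overlapping POLR2C, per kilobase. The cause of the change in rank was not tested. Depth limits every KO value: 0 counts over the KO group allow up to 1.25 CPM.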

Other observations

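A list of copies and relatives of the 40 genes also held AK6, which only overlaps TAF9, and POLR2M, listed by its name. Of its 16 rows in the table, under 14 names, 15 were at 0 in all KO libraries. That was 93.75%, beside 88.9% of all genes in the table, and 6 of the 16 rows were not tested. The exception was CCNT2, the alternative cyclin of CDK9, with 108, 135 and 99 counts in KO1, KO2 and KO3, against 3478, 4247 and 4255 counts in WT1, WT2 and WT3. It was 2.23-fold higher in CPM (edgeR log2 change 0.77, adjusted p = 0.00143), but 0.22 on the log2 scale with median-ratio scaling (adjusted p = 0.162). TAF5L, the counterpart of TAF5 in the coactivator SAGA, was at 0 in KO libraries and at least 45.8-fold lower, whereas TAF5 was counted in all 3.

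The enzymes that phosphorylate the polymerase tail, picked out after their values were seen, split in the KO libraries. CDK7 and CDK9 were at 0 in all 3, while CDK8, CDK13 and CDK12 were counted in all 3. CDK19, in the Mediator list with CDK8, had 0, 0 and 2 counts in KO1, KO2 and KO3. Its WT counts were 3857, 4249 and 4068, and it was 70.4-fold lower in KO. CDK12 had 120, 88 and 159 counts in KO1, KO2 and KO3, against 3521, 3984 and 3917 counts in WT libraries, and was 2.58-fold higher in CPM (edgeR log2 change 0.95, adjusted p = 0.00420). With median-ratio scaling its log2 change was 0.38 (adjusted p = 0.0758). MLLT3, of the super elongation complex, had 38, 52 and 64 counts in KO libraries, against 735, 612 and 584 in WT libraries, 6.35-fold higher (edgeR log2 change 2.26, adjusted p = 7.61e-05). SUPT4H1, the DSIF partner of SUPT5H, had 94, 83 and 105 counts in KO libraries, against 6703, 7420 and 7168 in WT libraries. It was called lower (edgeR log2 change -0.33, adjusted p = 0.0336), but its log2 change was 0.07 with library totals and its groups overlapped.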
